A study of Drosophila melanogaster with 8 samples.

Results

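The invader families are LTR retrotransposons of Drosophila melanogaster, and all rows of the 2 deposited tables whose family name begins with invader were taken, with no use of their values. These were 6 of the 111 transposable element (TE) families, namely invader1, invader2, invader3, invader4, invader5 and invader6, and each was present in both tables. RNA levels came from sequencing of polyA-enriched RNA of pooled ovaries, with 2 biological replicates in each of 4 groups. The piwi-sKD and no-KD flies were 1 line in a w background, with the driver tj-GAL4 together with tubP-GAL80[ts] and the hairpin sh-piwi, in which GAL4 is made in the somatic follicle cells that enclose the germline. The no-KD flies stayed at 20°C, where GAL80 blocks GAL4, and the piwi-sKD flies spent their last 5 days at 25°C, where the hairpin against piwi is made. The double knockdowns carried tj-GAL4 over a wild-type chromosome (tj-GAL4 / +) and GAL80[ts] sh-piwi over a second hairpin, sh-dcr2 in piwi-sKD,dcr2-sKD and sh-w, against the unrelated white gene, in piwi-sKD,ctrl-sKD. Both are labelled with the same 5 days at 25°C, although in the library names of these 4 samples a higher number stands at the place of the temperature. Piwi depletion and the temperature shift cannot be told apart in the first pair of groups, and the second pair came from separate crosses. The paper reports an RT-qPCR control in this line with an added GAL80 that does not respond to temperature. There, none of the TEs it tested rose after the shift. Its main text does not say whether invader families were among them.

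LTR retrotransposons, called endogenous retroviruses (ERVs) in the study, are transcribed from a long terminal repeat, and the RNA serves both as messenger and as the template that is copied back into DNA. In follicle cells the nuclear protein Piwi, guided by antisense piRNAs, silences their transcription, and most of these piRNAs derive from 1 long transcript, flamenco (flam). Dicer-2 (Dcr2) acts on another pathway, in which double-stranded RNA is cut into siRNAs that direct cleavage of matching RNA.

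Values were read counts per family divided by a size factor, here called normalised counts. The TE reads behind them ranged from 78807 to 343458 per library, and the detection floor, taken as 3 reads, stood at 2.66 to 3.23 normalised counts. All 6 invader families were above it in each of the 8 libraries, with 40 to 12804 reads, and all passed into the tests. Intervals on reads given here cover counting error only. The summed TE signal was 214847 ± 22997 in piwi-sKD and 82989 ± 4902 in no-KD (SD, n = 2 each). It was 307025 ± 18063 in piwi-sKD,dcr2-sKD and 186069 ± 9725 in piwi-sKD,ctrl-sKD. The median family was itself higher, by a log2 fold change of 0.47 in the first comparison and 0.24 in the second, and changes of invader families are also given relative to that shift. The tables hold TE families only, so neither piwi, Dcr2 nor markers of ovarian cell types were analysed here. In RNA of whole ovaries, a change in the number of follicle cells and a change in RNA per cell cannot be told apart.

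The first comparison asked how RNA of the invader families changed when Piwi was depleted in follicle cells. Only invader3 changed by more than 2-fold. It stood at 3859 and 4472 normalised counts in the piwi-sKD samples, against 417 and 407 in the no-KD samples. The groups were far apart, and every pairing of a piwi-sKD with a no-KD sample gave a ratio between 9.25 and 11.0. The ratio of the means was 10.1, which ranked 8th of the 108 families with a ratio. On the log2 scale the difference was 3.33 ± 0.11 (SE; limma adjusted p = 2.65e-08), with a 95% confidence interval of 8.49- to 11.9-fold. With the median family set to 0 it was 2.86 (limma adjusted p = 8.99e-08). It was 2.16 and 1.96 with samples centred on the median TE level or the TE sum made equal, and also passed the test. Under these 2 scalings the median family itself stood below 0, at -0.70 and -0.88. The no-KD values rested on 387 and 403 reads and differed by 0.362 times their counting SD, whereas the piwi-sKD values differed by 6.88 times theirs.

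Smaller changes were measured for invader4 and invader2. For invader4 the values were 78.5 and 93.8 normalised counts in piwi-sKD, against 43.1 and 48.4 in no-KD, a ratio of 1.88 with groups that did not overlap. It rested on few reads, 40 in no-KD replicate 1, where the 95% counting interval ran from 30.8 to 58.7 normalised counts. On the log2 scale invader4 differed by 0.89 ± 0.20 (SE; limma adjusted p = 0.00551), but by 0.43 with the median family set to 0 (limma adjusted p = 0.132). For invader2 the values were 627 and 738 normalised counts in piwi-sKD, against 519 and 465 in no-KD, a ratio of 1.39. Its log2 fold change of 0.47 ± 0.12 (SE) passed the test with the values as deposited (limma adjusted p = 0.011) and was itself the median of all families, so that nothing was left of it relative to the shift. Both calls were lost without piwi-sKD replicate 2 (limma adjusted p = 0.126 for invader4 and 0.0984 for invader2), and that of invader2 also without no-KD replicate 2 (0.0948). Both log2 fold changes turned negative when each sample was centred on the median TE level or when the TE sum was made equal, and that of invader2 also when centred on the DNA and non-LTR families. Under the first 2 of these scalings the median family itself stood at -0.70 and -0.88. There invader2, at -0.70 and -0.90, stayed close to the median, and invader4, at -0.28 and -0.45, stayed above it.

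The other members did not pass the test. For invader1 the values were 174 and 209 normalised counts in piwi-sKD, against 167 and 122 in no-KD. The groups did not overlap, but the ratio of the means was 1.32 and the 95% confidence interval of the log2 fold change ran from -0.03 to 0.85 (limma adjusted p = 0.0957). Without no-KD replicate 1 the log2 fold change of invader1 was 0.64 and passed the threshold (limma adjusted p = 0.028). For invader5 the values overlapped, at 111 and 135 normalised counts in piwi-sKD and 112 and 102 in no-KD (limma adjusted p = 0.381). For invader6 they were 53.7 and 53.1 in piwi-sKD, below 59.3 and 60.5 in no-KD, with a log2 fold change of -0.16 and a 95% confidence interval from -0.61 to 0.28 (limma adjusted p = 0.463). These levels came from 52 to 60 reads, for which the counting interval of a single no-KD sample was 44.7 to 77.2 normalised counts. With the median family set to 0, the value of invader6 was -0.63 and passed the test (limma adjusted p = 0.0269).

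**Figure D1:**
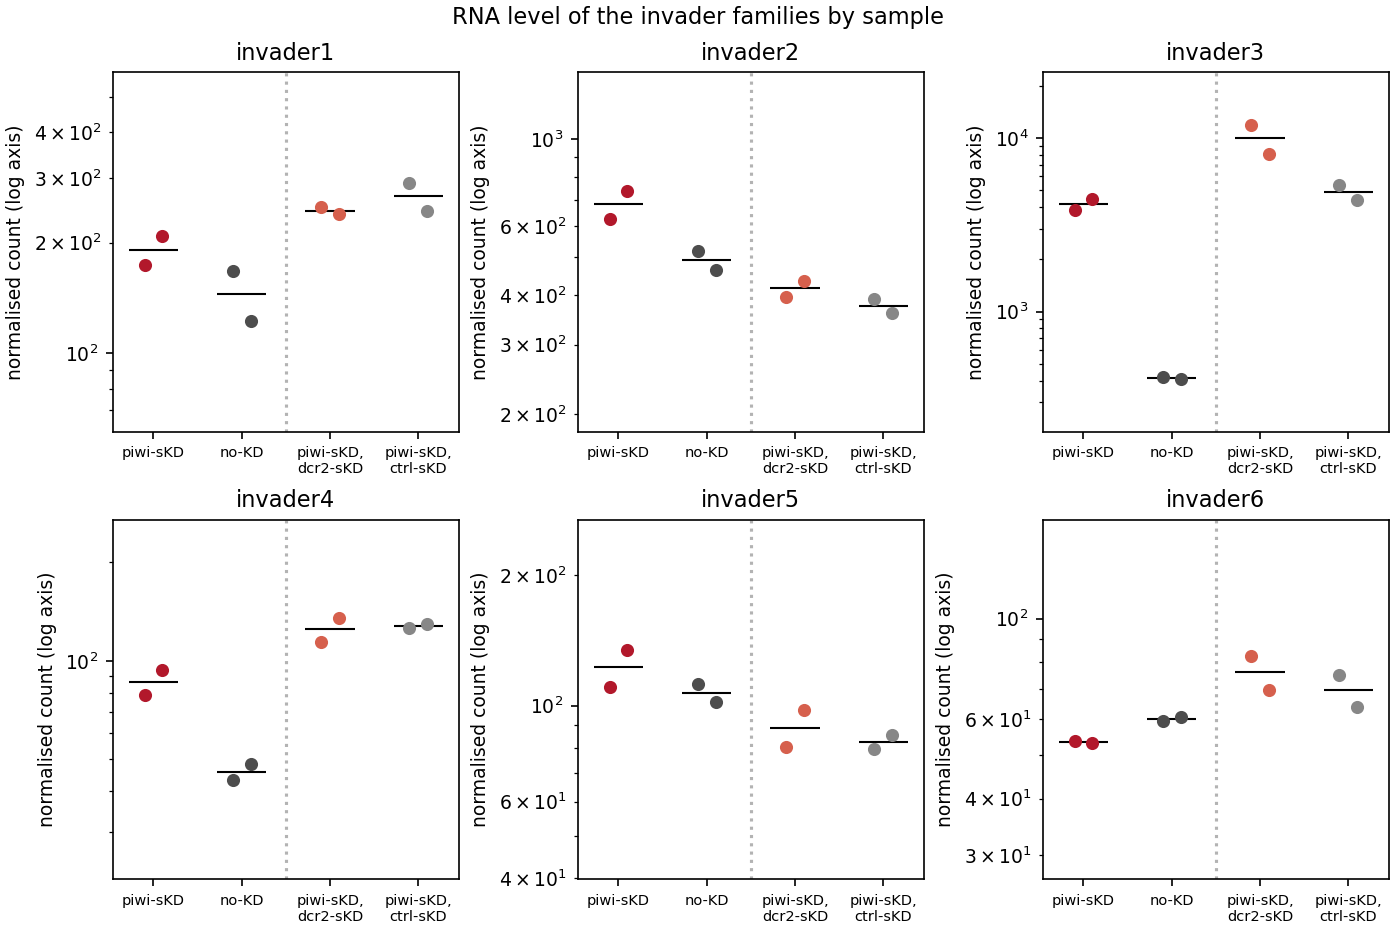
Normalised counts of each invader family in every sample, on log axes with a separate range per panel, where points are the 2 replicates of a group and bars their mean. The piwi-sKD samples of invader3 (3859 and 4472) lie far above those of no-KD (417 and 407), and the dotted line separates the tables, which were normalised apart.

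With the values as deposited, 3 of the 6 invader families were higher in piwi-sKD and 0 were lower at a limma adjusted p under 0.05. Over all 109 families tested, 55% were higher and 5.5% lower, so the share among the invader families was close to that of the whole table. Both piwi-sKD samples were above both no-KD samples for 4 of the 6, against 73.4% of all families, and 1 of the 6 had a ratio over 2, against 28.7%. With the median log2 fold change set to 0, invader3 was higher and invader6 lower, and over all families 31 were higher and 19 lower in place of 60 and 6. The median log2 fold change was 0.44 for the 6 invader families, 0.72 for the 48 other LTR families and 0.40 for the 55 non-LTR and DNA families. Among the 48 other LTR families 33 were higher and 2 lower. Of 8 LTR families known as targets of flam or of Piwi in follicle cells (ZAM, Idefix, gypsy, gtwin, gypsy5, Quasimodo, Tabor and Stalker2), 7 were higher and 0 lower, with a median of 3.06. This list was chosen with earlier results of these data known. It includes ZAM, gypsy5 and gtwin, which the paper names as the elements whose RNA rose most. Its median is therefore not an independent measure. The value of invader3, 3.33, lay above it, and those of the other invader families lay between -0.16 and 0.89.

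The sum of the 6 families was 4902 and 5700 normalised counts in piwi-sKD, against 1318 and 1205 in no-KD. It made up 2.47% of the TE signal in each piwi-sKD sample and 1.52% in each no-KD sample. Most of the difference lay in invader3. Without it, the sum was 1043 and 1228 normalised counts in piwi-sKD and 900.3 and 798 in no-KD, while invader3 alone took 1.94% of the TE signal in each piwi-sKD sample and 0.483% and 0.511% in no-KD.

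The second comparison asked whether Dcr2 limits this RNA once Piwi is depleted. Here invader3 was the only invader family that passed the test. It stood at 11922 and 8051 normalised counts in piwi-sKD,dcr2-sKD, against 5352 and 4384 in piwi-sKD,ctrl-sKD. The groups did not overlap, but the rise was uneven, with ratios between 1.50 and 2.72 over the pairings of samples. The ratio of the means was 2.05, which ranked 11th of 110 families. On the log2 scale the difference was 1.02 ± 0.16 (SE; limma adjusted p = 1.07e-08), with a 95% confidence interval of 1.62- to 2.52-fold, and with the median family set to 0 it was 0.78 (limma adjusted p = 1.76e-05). In this fit the spread was taken in full from families of similar level. The SE, interval and p-value therefore hold nothing of the spread between the replicates of invader3 itself, and the interval is narrower than the range over the pairings. Without the variance trend the limma adjusted p was 7.16e-06. There too the SE was largely shared, at 0.18 to 0.19 for the invader families.

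The replicates of invader3 differed by 27.7 times their counting SD in piwi-sKD,dcr2-sKD and by 9.74 times in piwi-sKD,ctrl-sKD. As a share of the TE signal invader3 took 3.73% and 2.74% in piwi-sKD,dcr2-sKD, against 2.77% and 2.45% in piwi-sKD,ctrl-sKD, and these shares overlapped. The summed TE signal was itself higher in piwi-sKD,dcr2-sKD. With the TE sum made equal, the log2 fold change of invader3 was 0.29 and did not pass the test (limma adjusted p = 0.0547). Under this scaling the median family itself stood at -0.48, and invader3 stayed above it. With the values as deposited, the log2 fold change of invader3 was 0.87 without piwi-sKD,ctrl-sKD replicate 2. Without piwi-sKD,dcr2-sKD replicate 1, the higher of the pair, it was 0.73. The call was not kept in every such fit. The shared spread was estimated anew in each, so these calls are not compared.

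No other invader family passed the test in this comparison. For invader2 the values were 397 and 436 normalised counts in piwi-sKD,dcr2-sKD, just above 392 and 360 in piwi-sKD,ctrl-sKD, with a 95% confidence interval of 0.904- to 1.35-fold. Those of invader1, 249.5 and 239 in piwi-sKD,dcr2-sKD, overlapped with 291 and 244 in piwi-sKD,ctrl-sKD (0.739- to 1.14-fold). The values of invader4 and invader5 overlapped as well. For invader4 they were 114.5 and 135 normalised counts in piwi-sKD,dcr2-sKD, against 126 and 129.5 in piwi-sKD,ctrl-sKD (0.761- to 1.25-fold). For invader5 they were 80.1 and 97.7 in piwi-sKD,dcr2-sKD, against 79.5 and 85.4 in piwi-sKD,ctrl-sKD (0.816- to 1.41-fold). For invader6 they were 82.9 and 69.6 in piwi-sKD,dcr2-sKD, against 75.2 and 63.8 in piwi-sKD,ctrl-sKD (0.824- to 1.46-fold). The intervals of these 5 families thus reached at most 1.46-fold upward and 0.739-fold downward, and their limma adjusted p-values ran from 0.484 to 0.905.

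**Figure D2:**
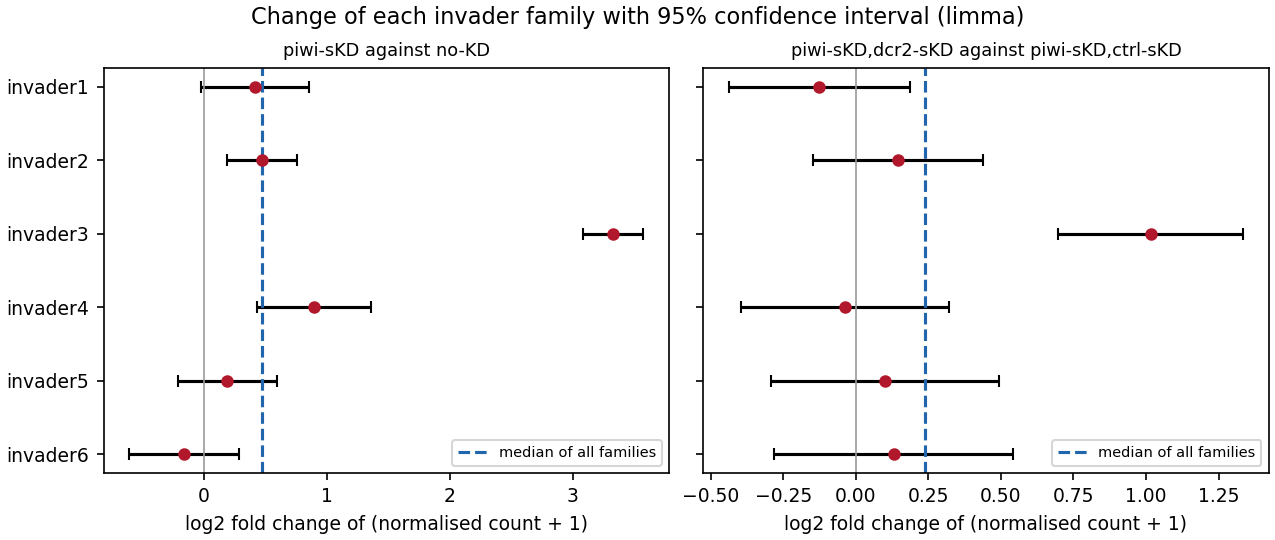
Log2 fold change of each invader family with its 95% confidence interval from limma, for piwi-sKD against no-KD on the left and piwi-sKD,dcr2-sKD against piwi-sKD,ctrl-sKD on the right, where axis ranges differ. The dashed line is the median of all families (0.47 and 0.24), and invader3 (3.33 and 1.02) lies to the right of it on both sides.

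With the values as deposited, 1 of the 6 invader families was higher in piwi-sKD,dcr2-sKD and 0 fell. Over all 110 families tested 27.3% were higher and 3.64% lower. Both piwi-sKD,dcr2-sKD samples were above both piwi-sKD,ctrl-sKD samples for 2 of the 6, invader2 and invader3, against 54.5% of all families. A ratio over 2 was found for 1 of the 6, against 11.8%. The median log2 fold change was 0.12 for the 6 invader families, 0.32 for the 48 other LTR families, of which 18 were higher and 4 lower, and 0.22 for the 56 non-LTR and DNA families. Of the 8 families listed above as targets of flam or Piwi, 3 were higher and 2 lower. Scalings that use TE levels themselves added lower calls. With samples centred on the DNA and non-LTR families invader3 was higher and 3 of the others were lower, and with samples centred on the median TE level invader3 was higher and 4 were lower. The median family itself stood at -0.21 and -0.29 under these scalings. The sum of the 6 families was 12846 and 9029 normalised counts in piwi-sKD,dcr2-sKD, against 6316 and 5268 in piwi-sKD,ctrl-sKD. Without invader3 it was 924 and 978 against 964 and 883, and the groups overlapped.

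Across the 4 groups, invader3 was lowest in no-KD and highest in piwi-sKD,dcr2-sKD. The middle pair of groups, both depleted of Piwi, overlapped (3859 and 4472 against 4384 and 5352), and no other neighbours in this order did. Levels from different tables were scaled apart and were not tested against each other. Placed side by side, the other members did not share this order. The level of invader4 was lowest in no-KD as well, but higher in both double knockdowns (114.5 to 135) than in piwi-sKD (78.5 and 93.8). That of invader1 had the same order of tables, with 239 to 291 in the double knockdowns and 122 to 209 in the first table. The level of invader2 ran the other way, at 360 to 436 in the double knockdowns, below both piwi-sKD (627 and 738) and no-KD (519 and 465). That of invader5 was also lower in the double knockdowns (79.5 to 97.7) than in piwi-sKD and no-KD (102 to 135), and that of invader6 was higher in them (63.8 to 82.9) than in piwi-sKD and no-KD (53.1 to 60.5).

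The families with the most similar profiles were found by the root mean square difference of log2 levels over the 8 samples, after subtraction of the mean of each table, among 104 candidates whose mean reached 10 normalised counts in each table. For invader3 these were the LTR elements gypsy6 (a difference of 0.164), blood (0.230) and copia (0.251), where the median of all candidates was 1.06. The choice by profile implies similar ratios. These were large in the first comparison, 9.45 for gypsy6, 8.02 for blood and 14.4 for copia, and smaller in the second, 2.60, 2.78 and 2.37. The levels of gypsy6 were 6270 and 4570 normalised counts in piwi-sKD,dcr2-sKD, against 2170 and 2002 in piwi-sKD,ctrl-sKD. The piwi-sKD,dcr2-sKD samples lay closer together for blood, at 12046 and 10569, against 4437 and 3684 in piwi-sKD,ctrl-sKD, and for copia, at 17552 and 16776, against 8073 and 6404 in piwi-sKD,ctrl-sKD. Between tables blood and copia differed from invader3. In piwi-sKD,ctrl-sKD blood averaged 4061 ± 532 and copia 7239 ± 1180 normalised counts, below their means of 11096 ± 1620 and 26177 ± 7886 in piwi-sKD (SD, n = 2). For gypsy6 the order was that of invader3, with 2086 ± 119 in piwi-sKD,ctrl-sKD against 1404 ± 279 in piwi-sKD.

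**Figure D3:**
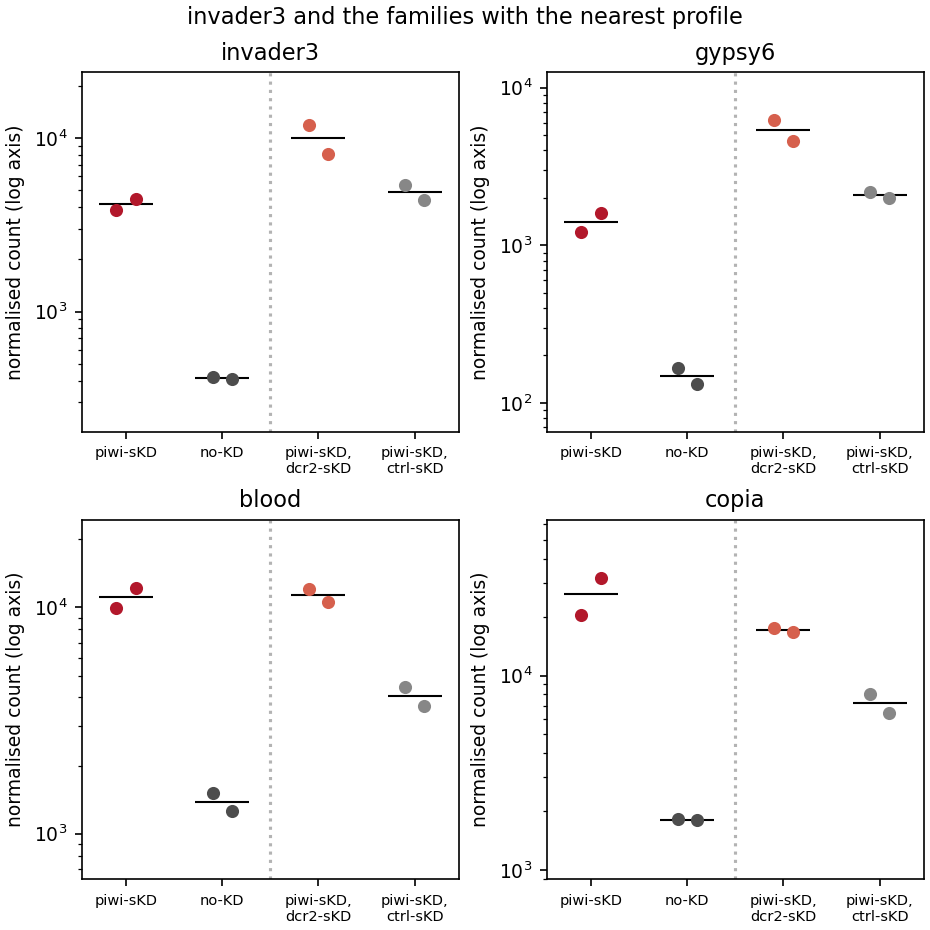
Normalised counts of invader3 and of gypsy6, blood and copia, the families with the most similar profiles, on log axes with points for replicates and bars for group means. All have their lowest values in no-KD, and in blood and copia the piwi-sKD,ctrl-sKD samples lie below those of piwi-sKD, unlike in invader3. The dotted line separates the tables, which were normalised apart.

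For invader2, close to the median of all families, the nearest profiles were those of the LTR elements opus (0.0588) and roo (0.0761) and the non-LTR element G4 (0.0700), with ratios of 1.23 to 1.51 in the first comparison and 1.11 to 1.20 in the second. For invader4 they were those of the non-LTR element Doc3 (0.138), the LTR element gypsy4 (0.152) and the DNA element hopper (0.155), with ratios of 1.54 to 1.65 in the first comparison and 0.895 to 1.01 in the second. Both sets thus mixed LTR families with other classes.

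The counts of a family sum over its insertions and cannot be assigned to 1 of them. The reference annotation (assembly BDGP6.54) was therefore used to describe what each family name covers, which need not match the insertions of the lines used, and those were not analysed here. It holds 152 insertions of the 6 families, 47 of invader1, 24 of invader2, 37 of invader3, 33 of invader4, 3 of invader5 and 8 of invader6. Most were fragments. The median length was 399 bp for invader1, 347 bp for invader4, 734 bp for invader3, 865.5 bp for invader6, 3693 bp for invader5 and 3868 bp for invader2. Spans of at least 3000 bp numbered 13 for invader2 and 10 for invader3, against 5 for invader1, 3 for invader4, 2 for invader5 and 1 for invader6. Some spans enclose insertions of other elements, so these lengths are not of invader sequence alone.

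**Figure D4:**
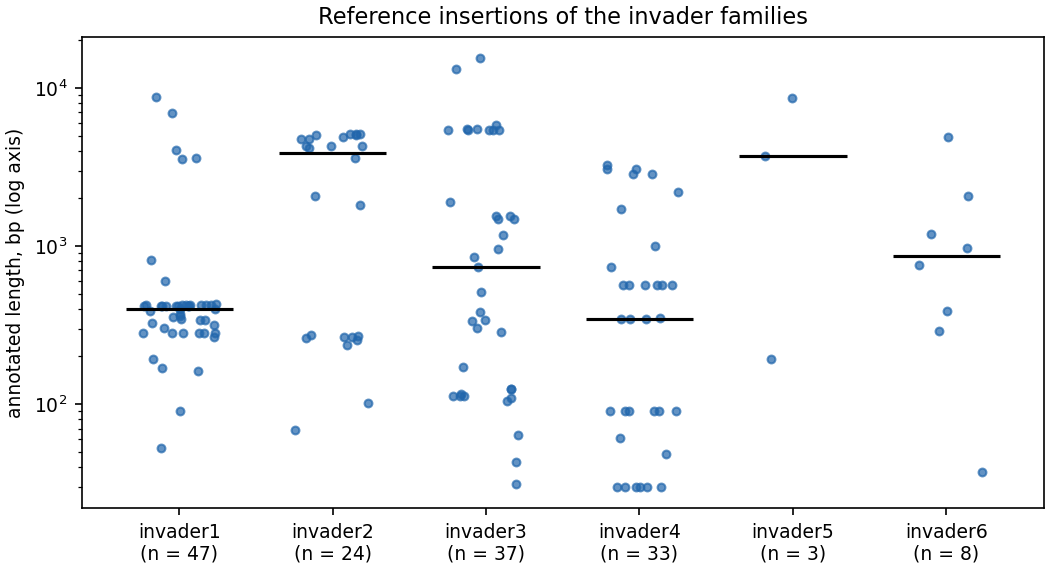
Annotated length of each reference insertion of the invader families, 1 point per insertion, on a log axis with a bar at the median. The insertions of invader1 and invader4 cluster at short lengths (medians of 399 and 347 bp), whereas invader2 and invader3 have 13 and 10 spans of at least 3000 bp. Lengths are of whole spans, some of which enclose other elements.

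Of the insertions of invader3, 31 lay outside genes, 5 in introns and 1 touched an exon. Some of the long ones lay outside genes and overlapped no other annotated element. Such spans were on chromosome 2R from 5622121 to 5627594 (5474 bp, minus strand) and on chromosome 3L from 28079884 to 28085293 (5410 bp, plus strand). Another was on chromosome 3R from 7707820 to 7713635 (5816 bp, plus strand). Introns of Myo81F and CG17684 held other long ones, of 5401 and 5430 bp. The span of 13188 bp on chromosome 3R from 7694632 to 7707819 overlapped an exon of Nlg1, a neuroligin gene, and overlapped insertions of gypsy3 and springer. In all, 11 of the 37 invader3 spans overlapped another annotated insertion, in 1 case of gtwin, in 2 cases of mdg3 and in 2 cases of invader3 itself. The gtwin overlap was with the longest span, 15425 bp on chromosome 2L from 20175810 to 20191234. No span of invader3 overlapped one of another invader family, while such overlaps existed between the other members, as between invader1 and invader6 in 2 cases. Whether reads from such places were counted for more than 1 family was not tested.

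The annotation of invader4 was concentrated at 1 place. Of its 33 insertions, 20 were on chromosome 3R, and 19 of these lay between 32072961 and 32078912, outside genes and on the plus strand. They end at the last annotated position of the arm, and include 6 spans of 569 bp at a constant spacing of 984 bp, a tandem array at the chromosome end. A further insertion of invader4 on chromosome 3L from 23596846 to 23599714 (2869 bp) lay in an intron of AGO3, which encodes a PIWI protein of the germline. For invader2, the longest insertion, on chromosome 3R from 3492558 to 3497654 (5097 bp), lay in an intron of Parp1. The longest span of invader5, on chromosome 2L from 22329230 to 22337869 (8640 bp), lay in an intron of Marf1. It overlapped insertions of invader2 and transib3. That of invader6, on chromosome 2R from 6422772 to 6427630 (4859 bp), lay outside genes. The longest span of invader1, on the same arm from 6384156 to 6392884 (8729 bp), also lay outside genes and overlapped an insertion of F.

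None of the 152 invader insertions lay in the annotated flam transcript, on chromosome X from 21631891 to 21790731 (158841 bp, plus strand). This region held 47 annotated TE insertions, of which 37 were on the opposite strand to flam. An insertion there was annotated for 16 of the 54 LTR families tested. Of these 16, 15 were higher in piwi-sKD and 14 had a ratio over 2, with a median ratio of 6.58. Among the 32 other LTR families with no insertion there, 18 were higher and 8 had a ratio over 2, with a median ratio of 1.36, close to the 1.35 of the 6 invader families. Within the LTR families with no insertion in flam, invader3 was therefore among the few with a large ratio. Only copia, accord2, invader3 and HMS-Beagle2 exceeded 5-fold there, out of 38, against 10 of the 16 with an insertion. These counts describe the reference genome, which the flam locus of the line studied need not match, and the piRNAs themselves were not analysed here.

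**Figure D5:**
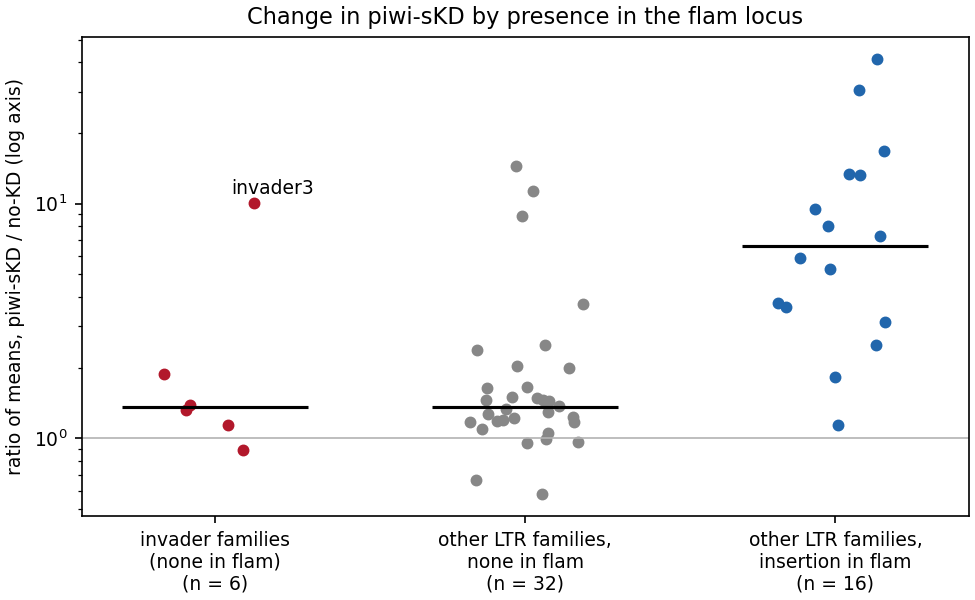
Ratio of means, piwi-sKD over no-KD, of each LTR family on a log axis, with a bar at the median, for the invader families, for other LTR families with no annotated insertion in flam and for those with one. The bulk of the invader families lies with the 32 other families absent from flam (medians of 1.35 and 1.36). The ratio of invader3 (10.1) lies near those of copia (14.4), accord2 (11.3) and HMS-Beagle2 (8.86), also absent from flam. It lies as well with the higher values of the 16 families present there.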

How the data were processed

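Ovarian polyA RNA of 8 samples was sequenced by the authors as single reads. According to the study's methods, reads were trimmed with UrQt, genes were counted with TopHat2 and eXpress, and TE families with TEcount on copies from the sequenced genome. Strand handling and the treatment of reads shared by families are not given in the sources used here. The authors deposited a normalised signal, that is, reads of each TE family over a DESeq2 (1.10) size factor estimated on genes and TEs together, separately for each of 2 tables of 111 families and 4 samples. All 8 columns were used and 0 were left out. Each column was whole multiples of 1 step for 100% of values, with a tolerance of 1e-06 reads, from which reads and size factors were taken (0.927 to 1.13).

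Families were tested within each table with limma 3.58.1 in R 4.3.3 (eBayes with trend) on log2(normalised count + 1), a scale that understates changes of low families. Families at 0 in all 4 samples were left out, p-values were adjusted over all 109 or 110 families (Benjamini-Hochberg), and the threshold was 0.05. The first fit had 6.11 prior degrees of freedom and the second an infinite number. Ratios are of group means, with no pseudocount. The labels do not say whether replicates came from separate crosses, so p-values measure at most the spread between these samples. In the first fit the spread of each family was mixed with that of families of similar level. In the second fit only the shared spread was used. An exact permutation of 2 against 2 samples cannot give p under 0.333 and is not used. Classes were assigned by hand, insertions came from the BDGP6.54 annotation (Ensembl), used for names and positions in that assembly alone, since the labels name dm3 and the tables hold no coordinates, and 107 of the 109 families matched it by name. All invader families are named, and for each one called the 3 families with the nearest profile. Members and lists were chosen with earlier results of these data known. Alternatives were pseudocounts of 0.5 and 5, a minimum mean of 10, no trend, scalings, replicate blocks and leaving out each replicate.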

Additional observations from a re-analysis of the deposited data

How the results depend on the processing

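Pseudocounts, the filter on low means and the variance model without a trend changed no call of an invader family, and the log2 fold change of invader3 was positive under every alternative run. Scalings turned the following signs. With every sample centred on its median TE level, the first comparison had log2 fold changes of -0.76 for invader1, -0.70 for invader2, -0.28 for invader4 and -0.98 for invader5, and the second had -0.38 for invader2, -0.42 for invader5 and -0.39 for invader6. With the TE sum made equal they were -0.95, -0.90, -0.45 and -1.17 in the first, and -0.57, -0.61 and -0.58 in the second, where invader3 was at 0.29. With samples centred on the DNA and non-LTR families, a scaling added after seeing the data, invader1, invader2 and invader5 were at -0.13, -0.078 and -0.36 in the first, and invader2, invader5 and invader6 at -0.31, -0.35 and -0.32 in the second. With the median log2 fold change set to 0, also added, invader1 and invader5 were at -0.057 and -0.28 in the first, and invader2, invader5 and invader6 at -0.093, -0.14 and -0.11 in the second. Values already negative grew, with samples centred on the median TE level or the TE sum made equal, to -1.33 and -1.51 for invader6 in the first comparison, and to -0.65 and -0.85 for invader1 and -0.56 and -0.75 for invader4 in the second, and these passed the test. Those of invader3 shrank to 2.16 and 1.96 in the first and to 0.49 and 0.29 in the second, where 0.49 passed the test (limma adjusted p = 0.0265). Each scaling subtracts a constant per sample, which moves all families nearly alike. Under the first 3 scalings the median family itself stood at -0.70, -0.88 and -0.078 in the first comparison. In the second it stood at -0.29, -0.48 and -0.21. The first 3 scalings called 5, 6 and 2 invader families in the first comparison in place of 3, and 5, 5 and 4 in the second in place of 1. Over all families the calls were 92, 100 and 49 in place of 66 (22, 22 and 30 of them higher), and 58, 77 and 51 in place of 34 (15, 12 and 17 higher).

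Leaving out 1 replicate gave 1 to 4 called invader families in the first comparison and 0 to 1 in the second, and 49 to 64 and 21 to 31 over all families. The log2 fold change of invader3 ranged over 3.22 to 3.44 and over 0.73 to 1.30. Calls in the second comparison were fewest without piwi-sKD,ctrl-sKD replicate 2. Over all fits of the second comparison with 1 replicate left out, invader1 ranged from -0.25 to 0.0012, invader4 from -0.15 to 0.082 and invader5 from -0.041 to 0.24. With 1 sample left in a group, that sample is assumed to vary like the others.

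The labels do not say that equal replicate numbers mark pairs, and the deviations of same-numbered samples correlated at -0.13 over 105 families in the first comparison and 0.25 in the second. With the replicate block 2 invader families were called in the first comparison, where invader2 had a limma adjusted p of 0.0502, and 58 of all families, and in the second 1 and 36. With the numbers crossed in the first comparison, a fit added after seeing the data, 4 invader families and 72 of all families were called. The planned count tests on recovered reads (edgeR and DESeq2) were not run, because the columns hold too few low values for the recovery of reads to be accepted for such a test. Depth limits invader4, invader5 and invader6, whose values rest on 40 to 152 reads.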
